A study of Mus musculus with 18 samples.

Results

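Small Cajal body RNAs (scaRNAs) were examined in extracellular vesicles (EV) and in the mouse dendritic cells (DC) that released them. The members are all rows that the deposited count table types as scaRNA, 51 of 6017 rows. Of these, 28 had 0 reads in all 18 libraries, 3 had 1 to 9 reads, and 20 had at least 10 reads over the 18 libraries and are described singly. In number, 7 members are named Scarna, 43 rows carry one of 38 Gm names, and 1 is named Mir1839. Some names stand in 2 overlapping rows (5 names, 10 rows), all of them at 0 reads. The sources do not state how reads over 2 overlapping rows were assigned, so these 0 counts are no measure of absence.

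DC were primary cultures grown with GM-CSF from bone marrow of C57bl/6 mice, 8 to 12 weeks old, and the 18 libraries form 6 groups of 3 biological replicates. LPS-EV and LPS-DC come from cultures that received LPS, lipopolysaccharide of bacteria and an activating stimulus, for 24 h. VitD3-EV and VitD3-DC come from cultures kept for 12 days in 10 nM VitD3, active vitamin D, which is known to make DC tolerogenic. Control-EV and control-DC were left untreated. EV were collected from medium that cells of these cultures conditioned over 20 h and purified on density gradients. Mouse strain and GM-CSF are shared by all groups, and a DC culture from bone marrow is a mixed population, so that in these bulk samples fewer cells of a type and less RNA per cell cannot be told apart.

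ScaRNAs reside in Cajal bodies, compartments of the nucleus in which small nuclear RNAs (snRNAs) of the spliceosome are modified. A scaRNA pairs with snRNA and guides an enzyme to the nucleotides that are modified. Those with C/D boxes guide methylation of the ribose, those with H/ACA boxes guide the change of uridine into pseudouridine, and some carry both domains. Their nucleolar relatives, the snoRNAs, guide the same changes in ribosomal RNA. Most mammalian scaRNAs and snoRNAs are cut out of introns of other genes, and some H/ACA RNAs are further cut by Dicer into fragments that act as miRNAs.

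Depth differed between the compartments. EV libraries held 410968 to 3053774 counted reads (median 1898611) with 66 to 940 scaRNA reads, and DC libraries 12427662 to 42065263 counted reads (median 17226400) with 3485 to 16726 scaRNA reads. LPS-EV replicate 2 is the smallest library, with 66 scaRNA reads. The 5 myeloid marker miRNAs made up 24.6 to 65.8% of miRNA reads in all 18 libraries. The 4 muscle marker miRNAs made up 6.67 to 7.41% of miRNA reads in replicate 3 of the EV groups, against at most 0.0119% in replicates 1 and 2, where 1 of the 4 was at 0 throughout. In DC these values were 0.362 to 0.749% in replicate 3 and at most 0.0202% in replicates 1 and 2. The 3 stromal marker miRNAs were also higher in replicate 3, at 0.0699 to 0.148% in EV, against at most 0.0408% in the others, and at 0.00318 to 0.00528% in DC, against at most 0.00144%. Replicate 3 is labelled sequencing run 2 in every group. In EV no other library carries that label, so that culture day and run cannot be told apart there. In DC, VitD3-DC replicate 2 is also labelled run 2, and it is among the libraries with at most 0.0202% muscle and 0.00144% stromal markers. The part of run and of day was not tested.

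A miRNA hairpin on the same strand lies within 5 of the members, and this divides the scaRNA rows. Mir1839 (lincRNA 2900076A07Rik, exon), Scarna3a (intron of Cop1), Scarna3b (intron of Dcaf5), Gm26083 (exon of Snhg20) and Scarna13 (intron of Snhg10) each hold 1 hairpin listed by RefSeq. Mature miRNAs are also counted in rows of their own, against miRBase, so that the same reads may stand in the table under both types. Mature miR-1839 counted as many reads as 99.3% of the Mir1839 row in EV and 94.8% in DC. For Scarna3b and its miR-1843a this was 97.3% in EV and 90.0% in DC, and for Scarna3a and its miR-1843b 78.4% in EV and 81.9% in DC. The mature share was low in Gm26083 (miR-6516, 9.73% in EV and 12.0% in DC) and in Scarna13 (miR-3069, 23.1% of 13 reads in EV and 14.7% of 68 reads in DC).

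The sequences of the 4 hairpin members with the most reads show where the miRNAs lie within the scaRNAs. Capitals mark the mature miRNA arms of RefSeq (GRCm38.p6) within the GENCODE M21 transcript (GRCm38, the mm10 assembly). Mir1839 lies at chr7:81529855-81529981 on the plus strand, Scarna3a at chr1:159340283-159340422 on the plus strand, Scarna3b at chr12:80391613-80391751 on the minus strand and Gm26083 at chr11:117077243-117077435 on the plus strand.
Mir1839: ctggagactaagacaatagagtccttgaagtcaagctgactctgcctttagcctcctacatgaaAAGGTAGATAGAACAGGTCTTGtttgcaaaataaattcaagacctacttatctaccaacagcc
Scarna3a: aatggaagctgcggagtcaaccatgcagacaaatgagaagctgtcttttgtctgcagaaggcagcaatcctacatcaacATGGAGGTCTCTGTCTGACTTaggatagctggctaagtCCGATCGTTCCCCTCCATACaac
Scarna3b: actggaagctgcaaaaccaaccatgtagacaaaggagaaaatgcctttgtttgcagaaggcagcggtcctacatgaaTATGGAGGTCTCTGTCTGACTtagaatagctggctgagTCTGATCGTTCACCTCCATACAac
Gm26083: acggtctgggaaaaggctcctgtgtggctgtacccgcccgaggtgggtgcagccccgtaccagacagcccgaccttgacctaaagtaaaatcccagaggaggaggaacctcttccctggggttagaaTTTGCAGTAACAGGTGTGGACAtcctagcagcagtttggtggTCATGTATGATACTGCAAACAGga

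In each, the arms shown start past the middle of the transcript. In Mir1839 only the 5p arm is marked, at bases 65 to 86 of 127. Scarna3a and Scarna3b are 85.7% identical over their length. The whole of miR-1843b-5p also stands in Scarna3b. Reads of this arm could therefore align to both, and the counts of both are uncertain. The 5p arms counted as many reads in EV as 99.2% of the Mir1839 row, 77.8% of the Scarna3a row and 94.1% of the Scarna3b row, against at most 3.17% for a 3p arm of Scarna3a or Scarna3b. These 3 arms are shown with the seed, bases 2 to 8, in capitals. They have 3 different seeds, though those of miR-1843b-5p and miR-1843a-5p overlap in sequence.
miR-1839-5p: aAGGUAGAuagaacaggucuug
miR-1843b-5p: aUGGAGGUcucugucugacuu
miR-1843a-5p: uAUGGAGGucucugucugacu

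The other 15 members with at least 10 reads hold no hairpin. Of the 20, 16 lie within a host gene on the same strand by GENCODE M21, 13 of them in a host that codes for protein, and 14 are intronic. Scarna6 and Gm25395 lie in introns of the same host, Atg16l1. Lengths run from 76 to 414 nt. Libraries were made from inserts of 15 to 300 nt, so that the full-length Scarna2 (414 nt) and Gm22009 (343 nt) could not enter a library in 1 piece. By sequence, 6 of the 20 hold ATGATGA or GTGATGA, the C box, and 15 hold ACA within the last 10 bases, the mark of an H/ACA RNA, searched on the transcribed strand. Over all 51 scaRNA transcripts of GENCODE these shares are 15.7% and 70.6%, against 23.2% and 47.4% of 1507 snoRNA transcripts. TGAG, the letters of the Cajal body signal, was found in 13 of the 20, in 72.5% of the 51 and in 51.0% of the snoRNA transcripts.

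**Figure D1:**
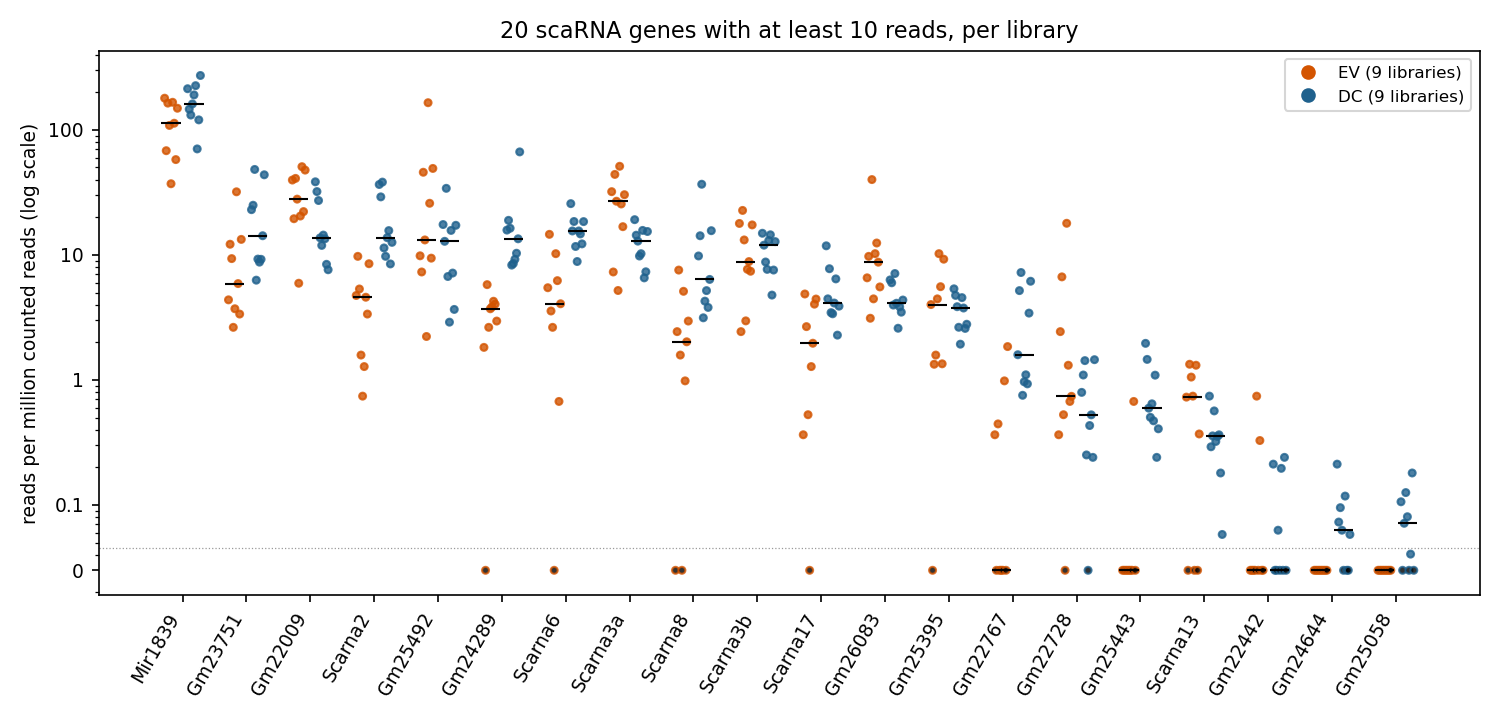
CPM (reads per 1000000 counted reads) of the 20 scaRNA genes with at least 10 reads, on a log axis with values of 0 drawn below the dotted line; each point is 1 library, EV left of DC, and the black bar is the median of 9 libraries. Mir1839 lies above the other genes in median, and the 3 genes on the right stay at or below 0.741 CPM in every library.

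Mir1839 was the most abundant member in both compartments. It had 37.1 to 179 CPM (median 113) in EV and 70.4 to 272 (median 161) in DC, and made up 33.1 to 58.3% of all scaRNA reads in EV libraries and 33.03 to 67.9% in DC libraries. Of the remaining members, those with the most reads summed over the EV libraries were Gm22009, Gm25492, Scarna3a and Scarna3b. In DC they were Gm23751, Scarna2, Gm22009 and Gm24289, of whose 3344 reads 1148 were in control-DC replicate 3. By median CPM over DC libraries, Scarna6 (15.5) takes the place of Gm24289 (13.4). By either order only Mir1839 and Gm22009 stood among the first 5 of both. Reads were found in all 9 EV libraries for 8 members and in all 9 DC libraries for 16.

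As a class, scaRNAs had a somewhat lower mean share of counted reads in EV than in DC, a difference within the spread of the pairs. Summed over the 51 rows and given as CPM, these were 307, 161 and 364 for LPS-EV, 244, 71.9 and 502 for VitD3-EV and 269.8, 143 and 347 for control-EV (replicates 1, 2 and 3). The DC values were 443, 344 and 398 in LPS-DC, 255, 280.4 and 352 in VitD3-DC, and 173, 215 and 501 in control-DC. The ranges overlap, and replicate 2 is the lowest of each EV group. The EV share was lower than that of the DC partner in 7 of 9 pairs, with a mean log2 ratio of -0.42 ± 0.80 (SD, n = 9 pairs, exact two-sided test by flipping signs, p = 0.137). Without the 5 hairpin members the log2 ratio was -0.50 ± 0.95 (exact p = 0.148).

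Against the reads of all guide RNAs, that is snoRNA and scaRNA rows together, the class was higher in EV. ScaRNAs made up 0.370 to 2.92% of guide RNA reads in EV (median 1.34%) and 0.0431 to 0.193% in DC (median 0.105%), so that the compartments did not overlap. The share was higher in EV in 9 of 9 pairs, on average 13.0-fold (log2 ratio 3.70 ± 1.31, p = 0.00391 in the same exact test, its lowest possible value). The 9 pairs carry 3 replicate numbers, whose libraries deviate together, so that this p, and those of edgeR over the same pairs, may be too small. With the 3 replicate numbers as units, a choice made after seeing the data, the mean log2 ratios were 4.55, 2.26 and 4.29 for replicates 1, 2 and 3, and the exact p was 0.25, the smallest that 3 units allow. Within LPS, VitD3 and control cultures alone the ratios were 12.1-, 12.1- and 15.1-fold, each with an exact permutation p of 0.1, the smallest that 3 against 3 allow. The denominators differ much between the compartments. SnoRNA rows held 1.16 to 4.33% of counted reads in EV and 14.5 to 55.5% in DC, while rRNA held 9.59 to 52.3% in EV and 0.331 to 1.29% in DC. Hence a statement on a single member per counted read and one per guide RNA read can differ in sign. The log2 ratio of the class was 0.00 when rRNA reads were left out of the total (exact p = 1) and 1.197 when tRNA reads were left out as well (exact p = 0.00781 over 9 pairs and 0.25 over 3 replicate numbers). Of the 9 pairs, leaving out those of replicate 2 gave -0.02 per counted read.

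**Figure D2:**
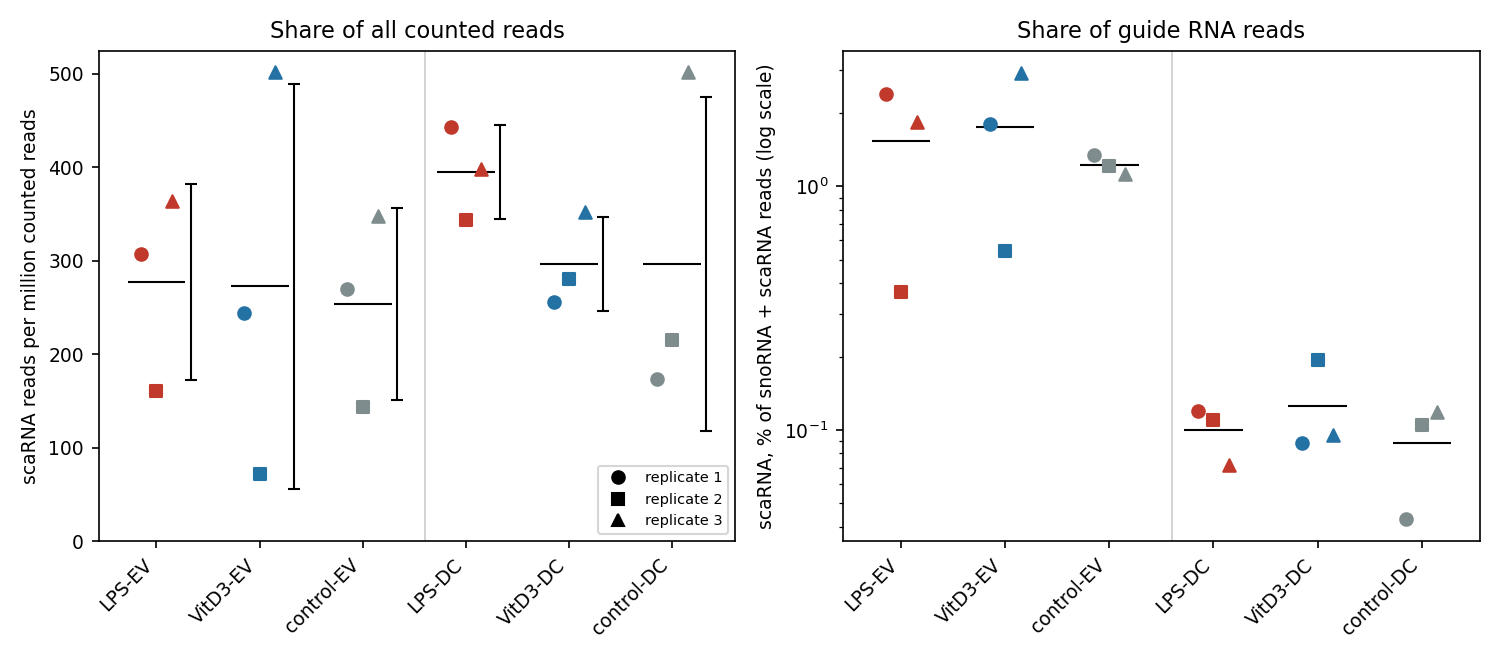
Summed scaRNA reads in each library, as CPM (left, with mean and SD of 3 replicates) and as percent of snoRNA and scaRNA reads (right, log axis, bar at the arithmetic mean); colours mark LPS (red), VitD3 (blue) and control (grey). On the left EV (71.9 to 502) and DC (173 to 501) overlap, and on the right all 9 EV libraries (0.370% and above) lie above all 9 DC libraries (0.193% and below).

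Single members were unequally distributed over EV and DC. Per counted read, edgeR over the 9 pairs called 1 of 20 members higher in EV (FDR, the Benjamini-Hochberg adjusted p, below 0.05), beside 11.7% of all 1604 rows tested, and 8 of 20 lower in EV, beside 29.6% of all rows. The median log2 fold change (log2FC) of the 20 was -0.94, against -0.55 over all rows and -2.18 over 335 snoRNA rows, of which 10 were higher and 208 lower in EV. These medians include rows at 0 in EV, whose fitted values are no bound. With such rows set to the floor of 3 reads over the EV libraries, a setting chosen after seeing the data, the medians were 0.055 for the 20 members (2 at 0), -0.26 for all rows (164 at 0) and -2.06 for the snoRNA rows (18 at 0), so that the sign of the members' median and its place beside all rows rest on these 2 members. When the totals held guide RNA reads only, all log2FC moved by a median of 4.14, and edgeR called 16 of 20 members higher and 0 lower in EV. When rRNA and tRNA reads were left out of the total, the shift was 1.61, with 9 members called higher and 0 lower. How many of all rows were called with these totals is not given, so these counts are no result about the members. The values below are per counted read.

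The 8 members lower in EV per counted read hold no hairpin, and all 8 had a positive log2FC when set against guide RNA reads (0.57 to 2.85). Scarna2, which in human guides methylation of U2 snRNA, had 4.73, 9.73 and 5.34 CPM in the LPS-EV libraries, against 1.58, 0.741 and 1.28 for VitD3-EV and 4.58, 3.36 and 8.50 for control-EV. In the DC it had 36.6, 29.1 and 38.2 in LPS-DC, 11.4, 9.74 and 13.7 in VitD3-DC and 15.6, 8.47 and 12.6 in control-DC. Each EV library lay below its DC partner (9 of 9 pairs; log2FC -2.19 ± 0.44 (SE), edgeR FDR = 3.91e-06). The same held for 3 other members in 9 of 9 pairs (edgeR FDR = 8.83e-06 for Gm24289, 4.00e-05 for Scarna6 and 4.20e-05 for Scarna8). Scarna8, which in human guides pseudouridylation of U2 snRNA, had 0 to 7.56 CPM in EV (median 2.02) and 3.14 to 36.7 in DC (median 6.36; log2FC -2.19 ± 0.49). Its EV values rest on 39 reads, 17 of them in LPS-EV replicate 3, and most of its EV libraries held 3 reads or fewer. Gm24289, in an intron of Tipin, had 0 to 5.78 in EV (median 3.71) and 8.29 to 66.6 in DC (median 13.4; log2FC -2.16 ± 0.45), so that its EV and DC libraries did not overlap. Scarna6, whose human counterpart carries both kinds of boxes and guides changes in U5 snRNA, had 0 to 14.6 in EV (median 4.06) and 8.85 to 25.7 in DC (median 15.5; log2FC -1.95 ± 0.44). Both of the shorter H/ACA members among these are shown with the ACA nearest the 3′ end in capitals, Scarna8 from chr4:86586453-86586583 (minus strand) and Gm24289 from chr9:64295931-64296065 (plus strand), both GRCm38.
Scarna8: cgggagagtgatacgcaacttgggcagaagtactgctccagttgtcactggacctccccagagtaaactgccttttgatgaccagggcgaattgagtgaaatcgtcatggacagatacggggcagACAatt
Gm24289: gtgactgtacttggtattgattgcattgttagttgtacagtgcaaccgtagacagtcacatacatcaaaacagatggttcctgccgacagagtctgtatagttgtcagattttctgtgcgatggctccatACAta

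The remaining 4 were lower by less, or rest on even fewer reads than Scarna8. Gm23751, in an intron of Chd4, had a median of 5.89 CPM in EV and 14.2 in DC (log2FC -1.27 ± 0.42, FDR = 0.00809 in edgeR, lower in 8 of 9 pairs). Scarna17, which in human guides methylation of U4 and U12 snRNA, had medians of 1.96 and 4.12 in EV and DC (log2FC -1.41 ± 0.52, lower in 6 of 9 pairs). Gm22767, in an intron of Ppp1r8, had 10 reads in EV, with 5 of 9 libraries at 0, and 643 in DC (log2FC -2.48 ± 0.68). Gm25443 had 1 read in EV and 148 in DC, which is a ratio of pooled shares of 0.0758, with an exact 95% interval of 0.00191 to 0.429 that covers counting error only. Gm25443 and Scarna17 are 92.4% identical, so that the counts of both are uncertain. The calls of Gm23751, Scarna17 and Gm25443 were lost without replicate 1. That of Gm23751 was also lost without replicate 2 or without the replicate block. Gm24644 and Gm25058 had 0 reads in EV, and with 14 and 12 reads in DC their DC share lies below the floor of 3 reads over the EV libraries, 0.180 CPM, so that no ratio is given.

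Scarna3a was the one member that edgeR called higher in EV, although reads of its miR-1843b-5p could also align to Scarna3b (log2FC 0.03 ± 0.41). The EV levels of Scarna3a were 32.0, 7.30 and 44.0 CPM for LPS-EV, 26.9, 5.19 and 51.1 for VitD3-EV and 25.5, 16.8 and 30.3 for control-EV. Its DC levels were 19.1, 14.4 and 12.9 for LPS-DC, 9.79, 10.2 and 15.7 for VitD3-DC and 6.55, 7.32 and 15.4 for control-DC. EV lay above DC in 7 of 9 pairs (log2FC 0.99 ± 0.39, edgeR FDR = 0.0283). The exceptions are replicate 2 of LPS and of VitD3, and the call was lost without replicate 1 (FDR = 0.271) or without replicate 3 (FDR = 0.235). Gm26083 was higher in EV in 8 of 9 pairs (median 8.74 in EV and 4.10 in DC; log2FC 0.96 ± 0.43, FDR = 0.0590), and Gm22009 in 7 of 9 (median 27.9 in EV and 13.7 in DC; log2FC 0.76 ± 0.39, FDR = 0.105), and neither passed in edgeR. Gm22728, in an intron of G3bp2, had the highest log2FC, 1.42 ± 0.65 (FDR = 0.0665), with 39 reads in EV, of which 15 were in LPS-EV replicate 3 and 14 in VitD3-EV replicate 3. By DESeq2, 3 members were higher in EV, namely Scarna3a, Gm25492 and Gm26083, and 7 lower. How many of all rows DESeq2 called is not given, so these counts are no result about the members.

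**Figure D3:**
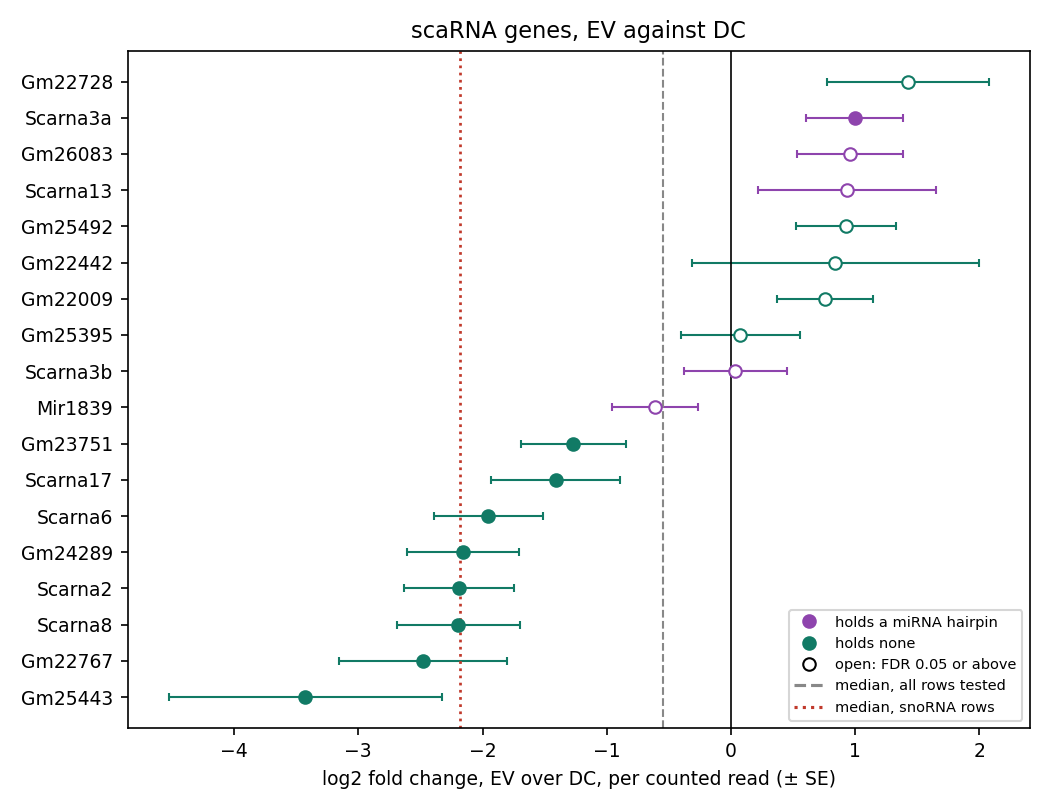
Fitted log2 fold change of EV over DC per counted read, with its SE, for the 18 scaRNA genes with reads in EV; filled points have FDR below 0.05, purple marks genes with a miRNA hairpin, and the broken and dotted lines are the medians of all rows (-0.55) and of snoRNA rows (-2.18). The 8 genes called lower lie between -3.43 and -1.27 and all are green, and Scarna3a at 0.99 is the 1 called higher.

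The 5 hairpin members had a median log2FC of 0.93 (from -0.61 for Mir1839 to 0.99), with 1 called higher and 0 lower in EV per counted read. The 15 others had a median of -1.95, or -1.27 with the 2 members at 0 in EV set to their floor, and ran from -3.43 to 1.42, with 0 called higher and 8 lower. The ranges overlap, and the difference was not tested. Against guide RNA reads the medians were 5.10 for the hairpin members and 2.22 for the others. MiRNA rows as a whole had a median of -0.02. The sources used here do not say whether each mature read was also counted in the scaRNA row, so that a difference between the rows is a count of reads outside the arms only if it was. The Mir1839 row less its mature rows left 15 reads in EV and 1609 in DC, or 0.899 CPM in EV and 8.60 CPM in DC, while the mature rows held 125 CPM in EV and 155 in DC. For Scarna3a the mature rows held 22.2 CPM in EV and 10.2 in DC, and the difference between the rows was 6.11 in EV and 2.25 in DC. For Gm26083 that difference was 10.0 CPM in EV and 3.89 in DC. Members with the C box (n = 6) had a median log2FC of -1.68, with 4 called lower in EV, and 2 of the 6 are the near-identical Scarna17 and Gm25443. The 14 without it had a median of -0.29, with 4 called lower and 1 higher. Of the 4 members without a host gene 3 were called lower, as were 5 of the 16 with one, beside 29.6% of all rows. Across the 20 members log2FC had a Spearman correlation of 0.273 with length (Pearson 0.155) and of 0.0917 with GC content (Pearson 0.0162), which is a description over genes that share the same libraries.

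Neighbouring RNAs give the frame. Of the C/D type, Scarna9 (a row typed snoRNA, in human a guide for U2 snRNA) was lower in EV as Scarna2 and Scarna17 were (log2FC -3.53, edgeR FDR = 5.67e-14). Of the type with both domains, Scarna10 (also typed snoRNA, in human a guide for U5 snRNA) was higher in EV (log2FC 1.802, FDR = 2.58e-05 in edgeR), unlike Scarna6. The 377 snRNA rows, among which are the targets of scaRNAs, had a median log2FC of -2.39, with 39 higher and 148 lower. The median was -0.76 with the 101 rows at 0 in EV set to the floor. The paper reports that many snRNA rows are multicopy genes of highly similar sequence, so these medians are no value for the targets alone. Of 11 Rnu-named snRNA rows, 4 were higher and 3 lower, with a median log2FC of -0.55. Terc, the telomerase RNA, which carries the same Cajal body signal, had 1 read in EV and 19 in DC. Rpph1, the RNA of RNase P, had a median of 285 CPM in EV and 13.7 in DC, and Rmrp, the RNA of RNase MRP, 685 in EV and 561 in DC.

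No response of the class to LPS or VitD3 passed the test. In EV the summed share changed by a mean log2 ratio of 0.14 in LPS-EV against control-EV, -0.20 in VitD3-EV against control-EV and 0.34 in LPS-EV against VitD3-EV (two-sided exact permutation p = 0.7, 0.8 and 0.8). In DC the ratios were 0.57 for LPS-DC against control-DC, 0.15 for VitD3-DC against control-DC and 0.42 for LPS-DC against VitD3-DC (exact permutation p = 0.4, 0.8 and 0.2). After adjustment over the 12 values, 6 contrasts with 2 denominators, no p was below 0.873, and 3 against 3 cannot go below 0.1. Without the 5 hairpin members, LPS-DC had 189, 165 and 240 CPM, VitD3-DC 69.0, 62.4 and 93.5 and control-DC 87.1, 76.1 and 197. LPS-DC and VitD3-DC then did not overlap, with a 2.65-fold difference (log2 ratio 1.41 ± 0.05 over 3 same-numbered pairs, exact permutation p = 0.1). Against guide RNA reads the difference was 1.65-fold (log2 ratio 0.72 ± 0.41, exact permutation p = 0.1).

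In EV, edgeR called 0 of 16 testable members in each contrast. For LPS-EV against control-EV, 0 of 989 rows passed in all (0%), and 0 members had an unadjusted p under 0.05, beside 3.03% of all rows. For VitD3-EV against control-EV again 0 rows passed (0%), and 2 members had an unadjusted p under 0.05, both lower in VitD3-EV, beside 2.73% of rows lower and 5.26% in either direction. For LPS-EV against VitD3-EV, 0.91% of rows passed, and 2 members, beside 9.2% of rows, had an unadjusted p under 0.05. DESeq2 and the likelihood ratio test of edgeR also called 0 members in the 3 contrasts. Scarna2, the U2 guide, is among both pairs of members. It had 3, 1 and 1 reads in VitD3-EV, none above the floor of 3 reads (1.58, 2.22 and 3.83 CPM), against 3.36 to 8.50 CPM in control-EV (edgeR FDR = 0.860), and LPS-EV had 4.73 to 9.73 CPM (FDR = 0.484 against VitD3-EV). At this depth no fold is given. Gm22009 had 27.9, 5.93 and 20.5 in VitD3-EV and 50.8, 22.2 and 47.7 in control-EV, lower in each of 3 pairs though the groups overlap (log2FC -1.07 ± 0.48, FDR = 0.860). Gm26083 had 6.55, 9.73 and 3.11 in LPS-EV and 40.03, 4.45 and 10.2 in VitD3-EV (log2FC -1.72 ± 0.64, FDR = 0.326), where VitD3-EV replicate 1 stands far above the other libraries. Without that library the log2FC was -0.96 (FDR = 0.843 in edgeR), and without LPS-EV replicate 1 it was -1.26. With replicate numbers left out it was -1.04 (without replicate 1) to -2.27 (without replicate 2), the last being the one setting that called it (FDR = 0.0252 in edgeR).

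In DC, the contrast of LPS with VitD3 was the one in which members were called. EdgeR called 3 of 20 members in LPS-DC against VitD3-DC, all higher in LPS-DC, beside 6.03% of 1560 rows higher and 11.7% in either direction. An unadjusted p under 0.05 was found for 7 members, all higher, beside 15.2% of rows higher and 29.2% in either direction. Levels are CPM over all counted reads, while the fits within a compartment use TMM scaling. Scarna8 had 9.80, 14.2 and 36.7 CPM in LPS-DC and 3.14, 4.26 and 5.18 in VitD3-DC (log2FC 1.65 ± 0.43, FDR = 0.0116). Gm23751 had 23.0, 24.9 and 48.2 in LPS-DC and 6.28, 9.25 and 8.75 in VitD3-DC (log2FC 1.45 ± 0.41, FDR = 0.0214). Gm22767 had 1.59, 5.18 and 7.23 in LPS-DC and 0.753, 0.966 and 1.10 in VitD3-DC (log2FC 1.70 ± 0.49, FDR = 0.0220). In none of the 3 did the groups overlap, and LPS-DC replicate 3 was the highest library in each. The calls do not hold under every setting: 0 members passed without VitD3-DC replicate 2, the one replicate 2 of DC labelled run 2 (FDR 0.0505 to 0.127 for the 3), without LPS-DC replicate 2 or 3, without VitD3-DC replicate 3, without all libraries of replicate 2 or of replicate 3, or without the replicate block. With guide RNA rows only, their log2FC were 0.83 to 1.06 and none of the 3 passed, while Mir1839 did (log2FC -1.23, FDR = 0.0385, lower in LPS-DC).

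All 5 hairpin members had a log2FC below 0 in LPS-DC against VitD3-DC, from -0.66 to -0.03, though 4 of the 5 lay above 0 when scaled by total counted reads, and none passed. The 15 others ran from -1.32 to 1.97, so that the ranges overlap, and 13 of them lay above 0, with a median of 0.68, but 8 with a median of 0.08 when scaled within guide RNA rows. The median over all rows was 0.13, over 331 snoRNA rows 0.85 (51 called higher and 1 lower), over 373 snRNA rows 0.66 (30 higher and 0 lower) and over 456 miRNA rows -0.54 (5 higher and 55 lower). Scaling by total counted reads moved all rows by a median of 0.44, and scaling within guide RNA rows moved the rows it kept by -0.63. With total counted reads 7 members were called. The calls over all rows with this scaling are not given, so this count is no result about the members.

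Against control-DC edgeR called 0 of 20 members with either agent, beside 1.03% of rows for LPS and 2.56% for VitD3. With LPS, 4 members had an unadjusted p under 0.05, all higher in LPS-DC, beside 7.82% of rows higher and 13.7% in either direction. Gm22009 had 38.4, 32.1 and 27.2 CPM in LPS-DC and 13.5, 8.41 and 7.60 in control-DC (log2FC 1.31 ± 0.42, FDR = 0.123), without overlap, and DESeq2 called it (log2FC 1.28, adjusted p = 0.0337), as its 1 member. Scarna2 had 36.6, 29.1 and 38.2 in LPS-DC and 15.6, 8.47 and 12.6 in control-DC (log2FC 1.09 ± 0.42, FDR = 0.230 in edgeR), also without overlap. Gm25492 and Scarna8 had log2FC of 0.96 ± 0.41 and 0.89 ± 0.41, that of Scarna8 being 0.32 without LPS-DC replicate 3. With VitD3, 4 members had an unadjusted p under 0.05, all lower in VitD3-DC, beside 6.09% of rows lower and 15.2% in either direction: Gm22767 (log2FC -1.52 ± 0.49), Gm24289 (-1.34 ± 0.45), Gm23751 (-1.11 ± 0.42) and Gm22728 (-1.53 ± 0.70), at edgeR FDR of 0.108 to 0.276. Gm24289 had 8.29, 8.53 and 9.22 CPM over the VitD3-DC libraries and 10.3 to 66.6 over the control-DC libraries, and without control-DC replicate 3, the highest, its log2FC was -0.61 (FDR = 0.457). DESeq2 called 0 members. With rows of at least 1 read kept, edgeR called Gm22767 and Gm24289, with that library included.

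**Figure D4:**
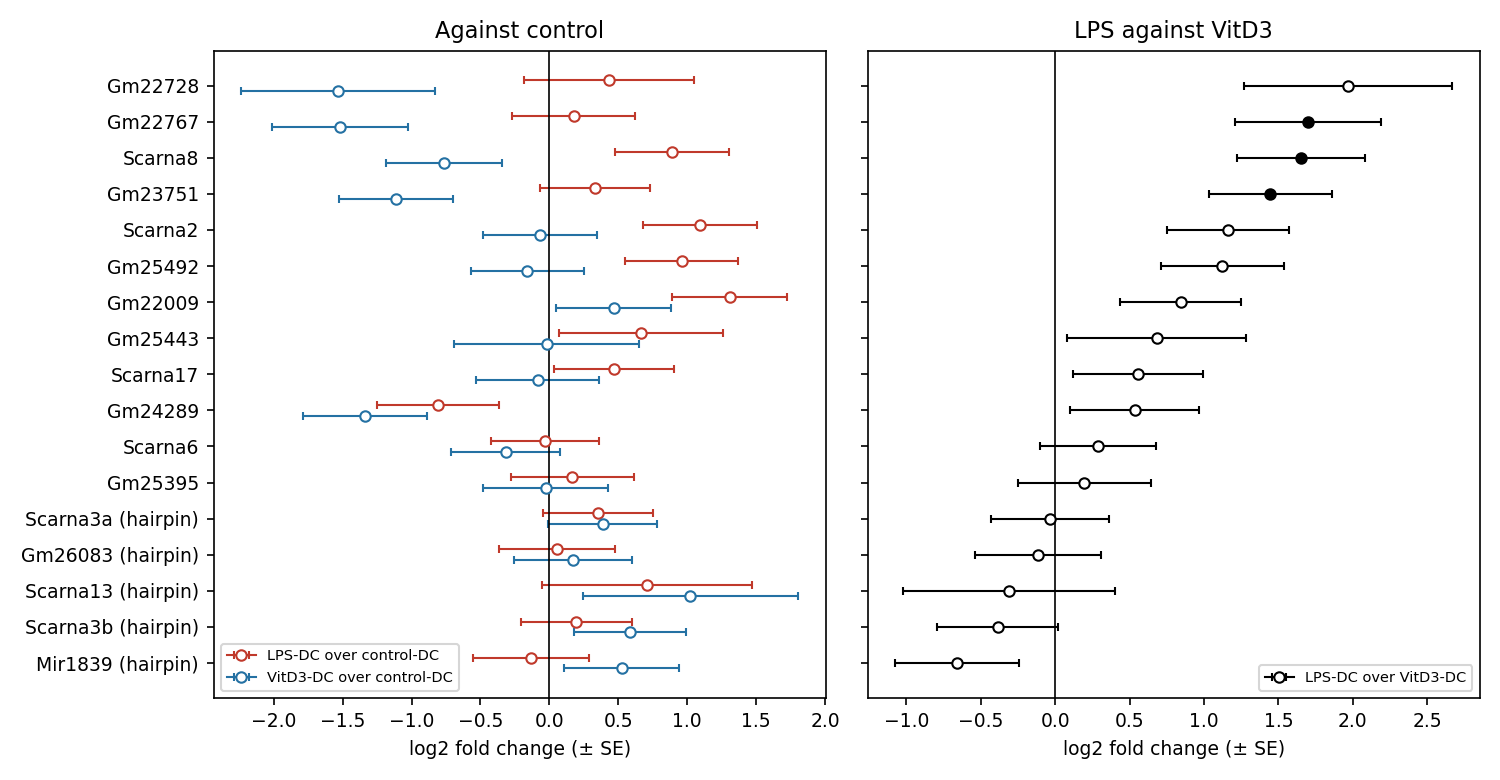
Fitted log2 fold changes with SE in DC for the 17 scaRNA genes whose SE stayed below 1.3 (log2), ordered by LPS over VitD3; left, LPS-DC (red) and VitD3-DC (blue) over control-DC; right, LPS-DC over VitD3-DC, where filled points have FDR below 0.05. The 3 filled genes are Gm22767, Scarna8 and Gm23751, and the 5 hairpin genes are the lowest of the rows plotted.

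Whether the responses differ between EV and DC was tested with an interaction term over 18 libraries. EdgeR called 0 of 20 members for LPS (0% of 1604 rows) and for VitD3 (0%), and so did its likelihood ratio test. For LPS, 2 members had an unadjusted p under 0.05, both lower in EV, beside 3.43% of rows lower and 6.23% in either direction: Gm25492 (difference of log2FC, EV minus DC, -1.83 ± 0.78) and Gm22009 (-1.61 ± 0.74, FDR = 0.653 for both). For Gm22009 the LPS response was -0.36 in EV and 1.31 in DC. For VitD3 there were also 2, both higher in EV, beside 5.17% of rows higher and 6.17% in either direction: Gm22728 (3.50 ± 1.38, FDR = 0.534) and Gm23751 (1.85 ± 0.81, FDR = 0.647). In VitD3-EV replicate 3, the highest EV library for both, these genes had 14 and 25 reads.

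Replicate 3 stood apart in some members. Gm25492, in an intron of Bud23, was highest in replicate 3 in 6 of 6 groups, with 45.8, 165 and 49.1 CPM in replicate 3 of LPS-EV, VitD3-EV and control-EV, against 2.22 to 25.9 in the other EV libraries. In DC its replicate 3 values were 34.1, 15.7 and 17.2 in LPS-DC, VitD3-DC and control-DC. Scarna8 was likewise highest in replicate 3 in 6 of 6 groups. These libraries are also those with the higher muscle and stromal marker miRNAs given above, and the part of run, day or other RNA in these levels was not tested.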

How the data were processed

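Small RNA libraries of 18 samples were prepared from rRNA-depleted RNA with inserts of 15 to 300 nt. The deposited table holds read counts per gene, 6017 rows, which the authors made by adapter removal (cutadapt 1.8, per the submitters' processing notes), clipping of reads to 100 bases (minimum 17), alignment with gsnap to mm10 with up to 3 paths kept per read, and stranded counting with HTSeq 0.6.1p1 against miRBase 20, Ensembl 84 and UCSC repeats. Annotating a locus under more than 1 type may place a read in more than 1 row. How reads with several paths were counted is not stated.

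Counts were fitted as deposited with edgeR 4.0.16 in R 4.3.3 (quasi-likelihood, a minimum of 10 reads per row in each fit, Benjamini-Hochberg over all rows). EV and DC were compared over 9 pairs with library size as the total count, and treatments within each compartment with TMM and the replicate number as block, as the study fits the experiment day. Same-numbered libraries deviated together (residual r 0.124 to 0.507 in 9 of 9 DC pairs and 0.0692 to 0.632 in EV, 8 of 9 over 0.1). Summed shares were compared by exact permutation or sign flips. DESeq2 1.42.0, other scalings, filters and left-out libraries were alternatives. Fits were tested on simulated data. Within groups 0 of 18 library pairs were identical. P-values within a compartment measure the spread between biological replicates. Those of EV against DC over the 9 pairs measure the spread between pairs that carry only 3 replicate numbers. Sequences come from GENCODE M21 and RefSeq (GRCm38.p6), and all 51 members matched by span. Sequence of members on chromosome 18 is not shown. Members and gene lists were chosen with earlier results of these data known. Values are named for the members with the most reads in each compartment, with calls, with an unadjusted p under 0.05 in a treatment contrast, or at the ends of the EV to DC order, and Scarna-named rows with their roles. Gm25395 and Gm22442 fall outside this rule and were named after their values were seen.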

Additional observations from a re-analysis of the deposited data

Results flagged for a closer look

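Dixon's criterion was applied to 46 sets of 9 libraries, for 20 members and 3 sums in EV and in DC. Of these sets, 2 are members at 0 in EV. In 10 sets the highest or lowest library stood apart from the rest. The nominal rate of 1 in 20 assumes normally distributed values and does not apply to these CPM, some of which rest on 1 read. The sets also share the same libraries. Each set mixes the 3 treatments, and in all 10 it was the highest library. VitD3-EV replicate 3 was that library in 4 sets. Gm25492 reached 165 CPM (reads per 1000000 counted reads) there (129 reads, next library 49.1), Gm23751 32.0 (25 reads, next 13.3) and Gm22728 17.9 (14 reads, next 6.67). The summed scaRNA reads without hairpin members were at 267 CPM in this library, with the next at 144.9.

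In VitD3-EV replicate 1, Gm26083 had 40.03 CPM (76 reads, next 12.4). In VitD3-EV replicate 2, Gm22442 was at 0.741, and in control-EV replicate 2, Gm25443 at 0.673, each of them 1 read. In DC, LPS-DC replicate 3 stood apart for Scarna8 (36.7 CPM, 1545 reads, next 15.6) and for Gm25492 (34.1, next 17.5). Gm24289 had 66.6 CPM in control-DC replicate 3 (1148 reads, next 18.9).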

How the results depend on the processing

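Direction in EV against DC depended on the total. Against guide RNA reads edgeR called 16 members higher and 0 lower in EV, and the log2FC of the 8 members lower per counted read reversed (Scarna2 1.97, Gm23751 2.85, Gm24289 2.04, Scarna17 2.74, Scarna8 1.97, Gm22767 1.62, Scarna6 2.22, Gm25443 0.57). Without rRNA, 5 were higher and 6 lower, and without rRNA and tRNA 9 higher and 0 lower, with Gm23751 at 0.37 and Scarna17 at 0.20. For these totals the calls over all rows are not given. Members higher in EV numbered 3 by the likelihood ratio test, 3 by DESeq2, 3 with filterByExpr, 4 without the replicate block, 2 without LPS-EV replicate 2 (chosen after seeing the data) and 0 to 3 without 1 replicate number, with 5 to 8 lower in the last. For LPS-DC against VitD3-DC, 3 members became 5 by the likelihood ratio test, DESeq2 or a minimum of 1 read, 7 without TMM, 1 with guide RNA rows, 0 without the replicate block and 0 to 6 when libraries or replicate numbers were left out. LPS-DC against control-DC gave 1 by DESeq2. VitD3-DC against control-DC gave 2 with a minimum of 1 read and 0 to 3 with libraries left out, and LPS-EV against VitD3-EV 0 to 1. The calls over all rows under these alternatives are not given either, so the counts are no result about the members. The log2 ratio of the summed share was 0.00033 (EV against DC) without rRNA, 1.197 without rRNA and tRNA and 3.70 against guide RNA reads. For LPS-EV against control-EV it became -0.094 without rRNA and tRNA, -0.052 against guide RNA reads, -0.054 without Mir1839 and -0.10 without hairpin members. For VitD3-EV against control-EV it was 0.22 against guide RNA reads and -0.57 to 0.19 with replicates left out, for LPS-EV against VitD3-EV -0.27 and -0.067 to 0.74. For VitD3-DC against control-DC it was -0.35 without Mir1839, -0.56 without hairpin members (chosen after seeing the data) and -0.062 to 0.47 with replicates left out, and for LPS-DC against VitD3-DC -0.26 against guide RNA reads. The change of total itself moved all rows, and the cause of the other changes was not tested. With 66 to 940 scaRNA reads, EV libraries limit what can be detected.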
